A study of Rattus norvegicus with 7 samples.

Results

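Opioid and tachykinin signalling genes were followed in hippocampus and hypothalamus of rats fed DHA (docosahexaenoic acid), a fatty acid of the omega-3 class that is abundant in brain membranes. The set held 10 genes, picked out of the tables by symbol: the peptide precursor genes Pdyn, Penk, Pnoc and Tac1, the opioid receptor genes Oprm1, Oprd1, Oprk1 and Oprl1, and the tachykinin receptor genes Tacr1 and Tacr3. All 10 were found in the hypothalamus table of 16163 symbols, and 9 in the hippocampus table of 16153 symbols. Oprl1 was not analysed in hippocampus. The animals were male Sprague Dawley rats of 2 months at the start, and each group used here had received DHA for 6 weeks. There were 4 hippocampus and 3 hypothalamus libraries, and all had the DHA diet, so nothing below measures what the diet did. The labels number the replicates without saying that each is a separate animal or that the tissues came from the same animals, so the spread between libraries may be partly technical.

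Opioid peptides are cut from larger precursor proteins. Penk encodes proenkephalin, the source of the enkephalins, Pdyn encodes prodynorphin, the source of the dynorphins, and Pnoc encodes prepronociceptin, the source of nociceptin. Their receptors, mu (Oprm1), delta (Oprd1), kappa (Oprk1) and nociceptin (Oprl1), couple to inhibitory G proteins. Tac1 encodes the precursor of substance P and neurokinin A. Tacr1 is the receptor preferred by substance P and Tacr3 the one preferred by neurokinin B, and both couple to G proteins that activate phospholipase C. In the hippocampus dynorphin is known from granule cells of the dentate gyrus and enkephalin and substance P mainly from interneurons and afferent fibres. In the hypothalamus these peptides are made by many groups of neurons, among them arcuate neurons that make dynorphin together with neurokinin B.

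Levels are FPKM (fragments per kilobase of transcript and per 1000000 mapped fragments) as deposited, which is scaled by transcript length, so genes may be compared within a library. Each tissue came as its own table, so tissue and table cannot be told apart and differences between tissues are described without a test. To set tissues side by side, the 15805 symbols found in both tables were scaled to add up to 1000000 in every library. A gene was called higher in a tissue when all of its libraries lay above all libraries of the other and the means of log2(rescaled value + 1) differed by at least 1, which is 2-fold. The comparison took in 10736 symbols, those whose mean reached 1 FPKM in one tissue or the other. As a check of the tissue labels, 13 of the 13 listed markers of hypothalamic neurons were called higher in hypothalamus, where 13.4% of all symbols were. Of these markers, 8 averaged under 1 FPKM in hippocampus and passed the filter through hypothalamus alone. Of the 6 markers of glutamatergic neurons, 4 were called higher in hippocampus, among them Neurod6, and 1, the vesicular glutamate transporter gene Slc17a6, in hypothalamus. Replicate 1 of each tissue stood apart: it was under 0.1 times the lowest other library at 286 of 7586 hippocampal loci and at 182 of 8129 hypothalamic loci that were at 5 FPKM or more elsewhere, against at most 11 loci in any other library. In hippocampus, summed FPKM of 8 choroid plexus genes was 35.1 in replicate 2 and 2099 to 6006 in the other libraries.

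RefSeq promoter sequences (build GRCr8) were matched for 6 of the 10 genes: Pdyn, Tac1, Oprm1, Oprd1, Tacr1 and Tacr3. The 250 bases before the transcript start are shown for Pdyn and Tac1, whose peptide transcripts were called higher in hypothalamus, and for Tacr1 and Tacr3, the tachykinin receptors, so that their promoters can be set side by side. Capitals mark TGACG or its reverse complement CGTCA, the core of a cyclic AMP response element, the E-box CACGTG on either strand, and the TATA box TATAAA on the gene's strand.
Pdyn, chr3:137366504-137366753, minus strand: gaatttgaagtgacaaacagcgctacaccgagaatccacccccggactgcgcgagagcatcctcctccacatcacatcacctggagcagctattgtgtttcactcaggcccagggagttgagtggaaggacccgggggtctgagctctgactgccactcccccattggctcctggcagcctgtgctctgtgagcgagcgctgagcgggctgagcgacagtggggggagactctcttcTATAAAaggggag
Tac1, chr4:36645333-36645582, plus strand: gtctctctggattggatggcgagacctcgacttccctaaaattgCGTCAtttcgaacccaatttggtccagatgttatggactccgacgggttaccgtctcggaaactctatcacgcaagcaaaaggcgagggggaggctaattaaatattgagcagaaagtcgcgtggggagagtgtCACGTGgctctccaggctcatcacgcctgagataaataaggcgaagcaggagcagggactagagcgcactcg
Tacr1, chr4:116478367-116478616, plus strand: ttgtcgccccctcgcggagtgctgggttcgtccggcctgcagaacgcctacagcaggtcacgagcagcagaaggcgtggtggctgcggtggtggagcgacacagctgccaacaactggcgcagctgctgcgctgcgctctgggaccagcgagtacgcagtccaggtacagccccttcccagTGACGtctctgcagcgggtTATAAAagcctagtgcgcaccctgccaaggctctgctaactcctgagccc
Tacr3, chr2:225940247-225940496, plus strand: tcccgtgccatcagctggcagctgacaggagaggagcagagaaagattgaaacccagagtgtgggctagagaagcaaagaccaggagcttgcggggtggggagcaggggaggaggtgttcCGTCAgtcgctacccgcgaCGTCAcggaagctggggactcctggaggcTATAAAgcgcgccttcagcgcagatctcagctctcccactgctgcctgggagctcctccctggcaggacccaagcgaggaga
The TGACG core was found in 3 of the 6 genes, Tac1, Tacr1 and Tacr3, where 18.2% of 33469 promoter windows of the same length hold it. In Tacr3 it occurred at 2 places, and the more downstream one was part of ACGTCA, the reverse complement of TGACGT. The longer TGACGT, which contains the core, was also present in Tacr1 and stands in 6.95% of windows. The full palindrome TGACGTCA was in none of the 6 genes and is in 1.59% of windows. TATAAA was found in Pdyn, Tacr1 and Tacr3, where 8.06% of windows hold it. It started 13 bases before the annotated start in Pdyn, 50 in Tacr1 and 82 in Tacr3. The E-box was found in Tac1 and Oprd1, and 5.59% of windows hold it. Such matches describe letters in a window and not occupied sites.

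Of the 8 genes compared, 5 were called higher in hypothalamus: the 4 peptide genes Penk, Pnoc, Tac1 and Pdyn, and the kappa receptor gene Oprk1. None was called higher in hippocampus. Over all symbols compared, 13.4% were called higher in hypothalamus and 14.5% in hippocampus, and with FPKM as deposited 16.9% and 8.64%. The median difference, hypothalamus minus hippocampus, was 1.70 on the log2 scale over the 8 genes and −0.05 over all 10736 symbols. On non-overlap alone, without the 2-fold condition, Tacr1 joined and 6 of the 8 genes lay above in hypothalamus, where 24.4% of all symbols did so and 28.2% lay above in hippocampus. In bulk tissue, fewer cells of a type and less RNA per cell cannot be told apart. The 5 calls were the same genes with FPKM as deposited and under upper-quartile and median-ratio scaling, and without replicate 1 of both tissues. Pdyn was not called with its loci summed, with a pseudocount of 5, without hippocampus replicate 4 or without hypothalamus replicate 3, and Oprk1 was removed by a filter of 5 FPKM.

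**Figure D1:**
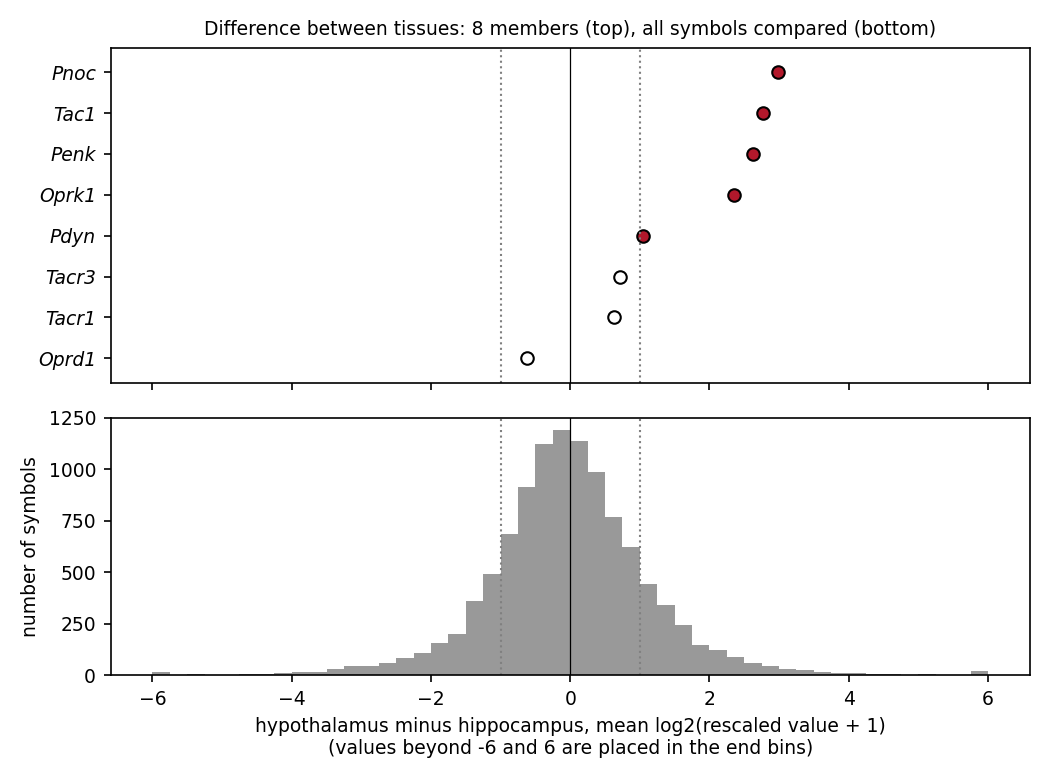
Difference between tissues in mean log2(rescaled value + 1), hypothalamus minus hippocampus, for the 8 genes compared (top, filled where called higher in hypothalamus) and as a histogram of all 10736 symbols compared (bottom, number of symbols per bin). Dotted lines mark a 2-fold difference. The peptide genes Pnoc, Tac1 and Penk and the receptor gene Oprk1 sit between 2.35 and 2.98, Pdyn at 1.05 lies just past the line, and Oprd1 is the only one below 0.

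Penk was the most abundant of the genes in both tissues. In hypothalamus it read 189, 203 and 217 FPKM in replicates 1 to 3, with a mean of 203 ± 13.8 (SD, n = 3). In hippocampus it read 25.7, 32.1, 23.4 and 25.2 FPKM in replicates 1 to 4, with a mean of 26.6 ± 3.81 (SD, n = 4). The groups did not overlap, and the lowest hypothalamus library was 5.0 times the highest hippocampus library after rescaling. The rescaled means differed 6.22-fold, or by 2.63 on the log2 scale, which is larger than that of 98.0% of all symbols compared. By rank within a library, Penk stood at the 97.6th to 98.1th percentile of symbols in hypothalamus and at the 80.9th to 85.5th in hippocampus. It was also the steadiest peptide gene in hypothalamus, with an SD of 0.10 in log2(FPKM + 1) against a median of 0.25 over symbols of at least 1 FPKM.

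Pnoc had the largest difference of the genes compared on the log2(rescaled value + 1) scale, while Oprk1 had the larger fold of rescaled means. It read 47.3, 35.9 and 60.7 FPKM in hypothalamus, a mean of 48.0 ± 12.4 (SD, n = 3), and 6.02, 4.66, 5.59 and 2.61 FPKM in hippocampus, a mean of 4.72 ± 1.52 (SD, n = 4). Every hypothalamus library was far above every hippocampus library, with replicate 4 the lowest in hippocampus. Rescaled means differed 8.21-fold, or by 2.98 on the log2 scale.

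Tac1, the substance P precursor gene, differed by nearly as much as Pnoc. Its hypothalamus libraries stood at 53.0, 30.2 and 44.6 FPKM, with a mean of 42.6 ± 11.5 (SD, n = 3), and 4.68, 4.53, 4.12 and 5.35 FPKM in hippocampus, a mean of 4.67 ± 0.51 (SD, n = 4). The hippocampus libraries lay close together and the hypothalamus libraries spread 1.75-fold, with replicate 2 the lowest. Rescaled means differed 7.41-fold, or by 2.77 on the log2 scale, and the lowest hypothalamus library was 4.70 times the highest hippocampus library.

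**Figure D2:**
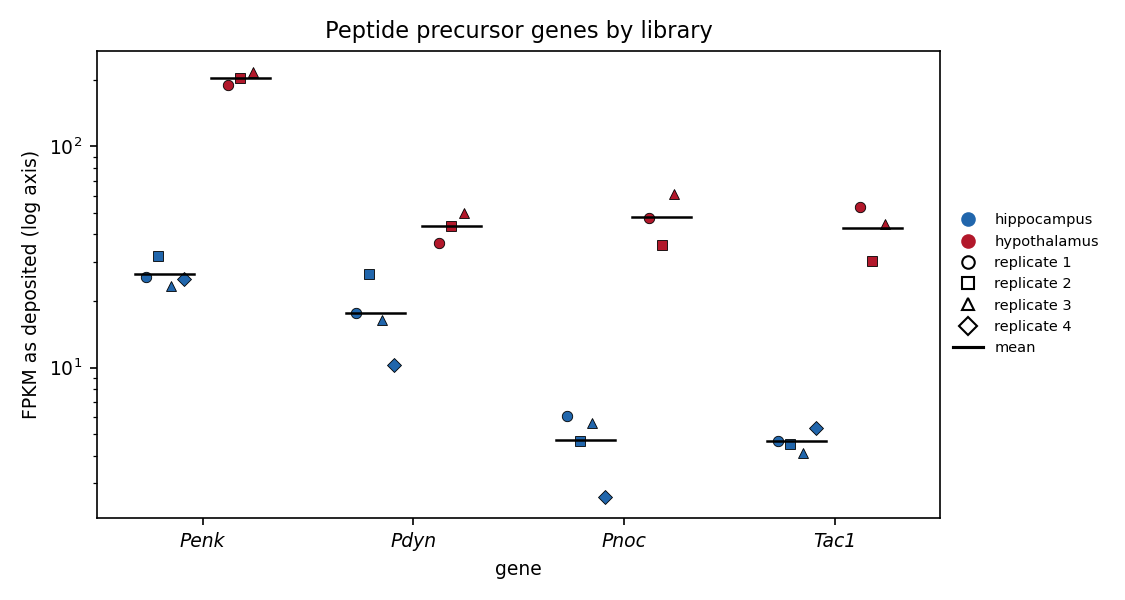
FPKM as deposited (log axis) of the 4 peptide precursor genes in each library, by tissue (colour) and replicate (symbol), with the mean of each tissue as a line. Penk in hypothalamus reads 189 to 217 FPKM and stands above all other points, and Pdyn in hippocampus spreads from 10.3 to 26.5 FPKM.

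Pdyn, the dynorphin precursor gene, had the smallest difference of the peptide genes and the one that rested most on how it was measured. At the locus with the highest mean it read 17.6, 26.5, 16.5 and 10.3 FPKM in hippocampus, a mean of 17.7 ± 6.70 (SD, n = 4), and 36.7, 43.7 and 50.2 FPKM in hypothalamus, a mean of 43.5 ± 6.76 (SD, n = 3). The tissues did not overlap, but the lowest hypothalamus library was only 1.17 times the highest hippocampus library after rescaling, and the rescaled means differed 2.00-fold, or by 1.05 on the log2 scale. The hippocampus table holds a second locus named Pdyn, which read 0.104, 11.4, 7.63 and 10.02 FPKM in replicates 1 to 4, so replicate 1 was near 0 there and at a middle value at the main locus. This is the only locus of the 10 genes lost in replicate 1. With both loci summed, hippocampus read 17.7, 38.0, 24.1 and 20.3 FPKM. When the loci of every symbol were summed before rescaling, Pdyn ranged from 50.1 to 101.6 in hippocampus and from 86.4 to 110.5 in hypothalamus, so the tissues overlapped, the difference was 0.58 and the call was lost. The call was also lost without hippocampus replicate 4, at 0.82, without hypothalamus replicate 3, at 0.97, and with a pseudocount of 5, at 0.99.

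The position of the Pdyn loci among the rows of the table was examined with strands from the RefSeq promoter table. Of the 10 nearest rows with a known strand, 9 were genes of the strand annotated for Pdyn at the main hippocampal locus, and 9 at the hypothalamic locus. At the second hippocampal locus, 0 of the 10 nearest rows were on that strand. For Tac1, Oprm1, Oprd1, Tacr1 and Tacr3, between 8 and 10 of the 10 nearest rows shared the gene's strand in either tissue. Kcnip3 and Fahd2a were listed just before the main locus in both tables. The rows just after it differed, with Sirpa in hippocampus and Il1b among those in hypothalamus, and Sirpa also followed the second hippocampal locus. The tables do not state strand, so reads of the gene and of an antisense transcript cannot be told apart at either locus.

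**Figure D3:**
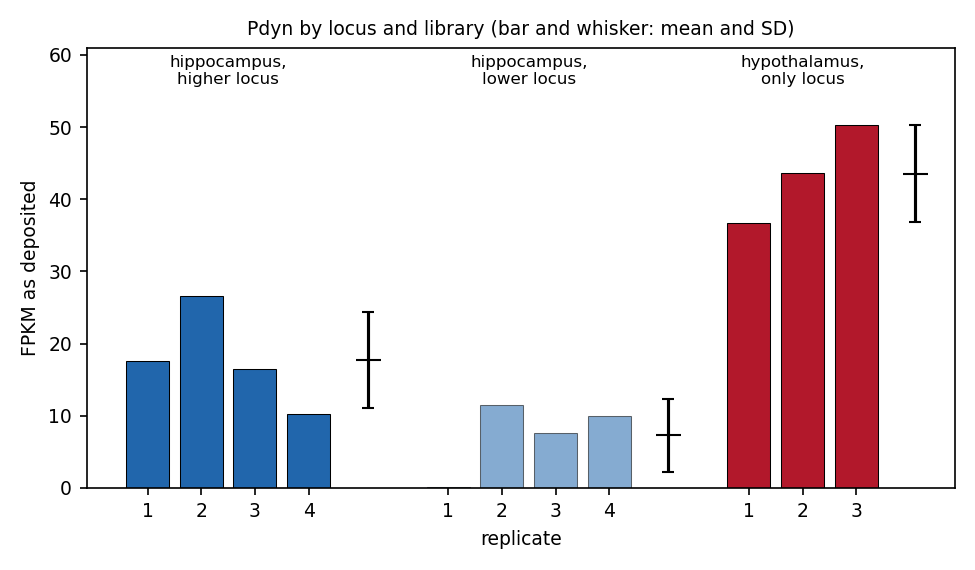
FPKM as deposited of Pdyn by locus and replicate, with the mean and SD of each locus beside its bars (n = 4 hippocampus, n = 3 hypothalamus libraries). The second hippocampal locus reads 7.63 to 11.4 FPKM in replicates 2 to 4 and 0.104 FPKM in replicate 1, where the bar is too low to see.

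Oprl1, the nociceptin receptor gene, was the most abundant receptor in hypothalamus, at 19.3, 13.6 and 15.9 FPKM and a mean of 16.3 ± 2.86 (SD, n = 3). Oprk1, the kappa receptor gene, read 6.04, 3.64 and 3.98 FPKM in hypothalamus, a mean of 4.55 ± 1.296 (SD, n = 3), and 0.310, 0.419, 0.479 and 0.532 FPKM in hippocampus, a mean of 0.435 ± 0.0953 (SD, n = 4). All hypothalamus libraries were above all hippocampus libraries, the lowest being 5.70 times the highest after rescaling. Rescaled means of Oprk1 differed 8.53-fold. Its difference of 2.35 on the log2 scale understates that of a gene so low in hippocampus: it was 2.98 with a pseudocount of 0.1 and 1.31 with 5. It passed the filter on low values through hypothalamus alone.

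Oprd1 and Oprm1, the delta and mu receptor genes, did not follow the peptides. Oprd1 read 2.31, 1.83, 1.63 and 1.13 FPKM in hippocampus, a mean of 1.72 ± 0.487 (SD, n = 4), and 1.11, 0.886 and 1.68 FPKM in hypothalamus, a mean of 1.23 ± 0.407 (SD, n = 3). The groups overlapped, with a difference of −0.62 on the log2 scale. By rank within a library Oprd1 lay at the 38.1th to 43.8th percentile in hippocampus and the 32.6th to 37.8th in hypothalamus, ranges that did not meet. The rescaled values did not overlap either once hippocampus replicate 4 or hypothalamus replicate 3 was left out. Oprm1 read 0.638, 0.801, 0.756 and 0.705 FPKM in hippocampus and 0.992, 0.649 and 0.688 FPKM in hypothalamus. Its means of 0.725 ± 0.0701 (SD, n = 4) and 0.776 ± 0.188 (SD, n = 3) were under 1 FPKM in both tissues, so it was not compared, and its groups overlapped.

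The tachykinin receptor genes differed less between tissues than Tac1. Tacr1, the substance P receptor gene, read 3.18, 3.39 and 4.21 FPKM in hypothalamus, a mean of 3.59 ± 0.541 (SD, n = 3), and 1.304, 1.99, 1.80 and 1.97 FPKM in hippocampus, a mean of 1.77 ± 0.321 (SD, n = 4). Its groups did not overlap, but the difference of 0.63 on the log2 scale was below the 2-fold condition. Tacr3, the neurokinin B receptor gene, read 8.97, 5.54 and 6.18 FPKM in hypothalamus, a mean of 6.90 ± 1.82 (SD, n = 3), and 1.87, 2.89, 3.44 and 5.61 FPKM in hippocampus, a mean of 3.45 ± 1.58 (SD, n = 4). Hippocampus replicate 4 reached into the hypothalamus range, and the difference was 0.71. Without that library the groups of Tacr3 no longer overlapped.

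**Figure D4:**
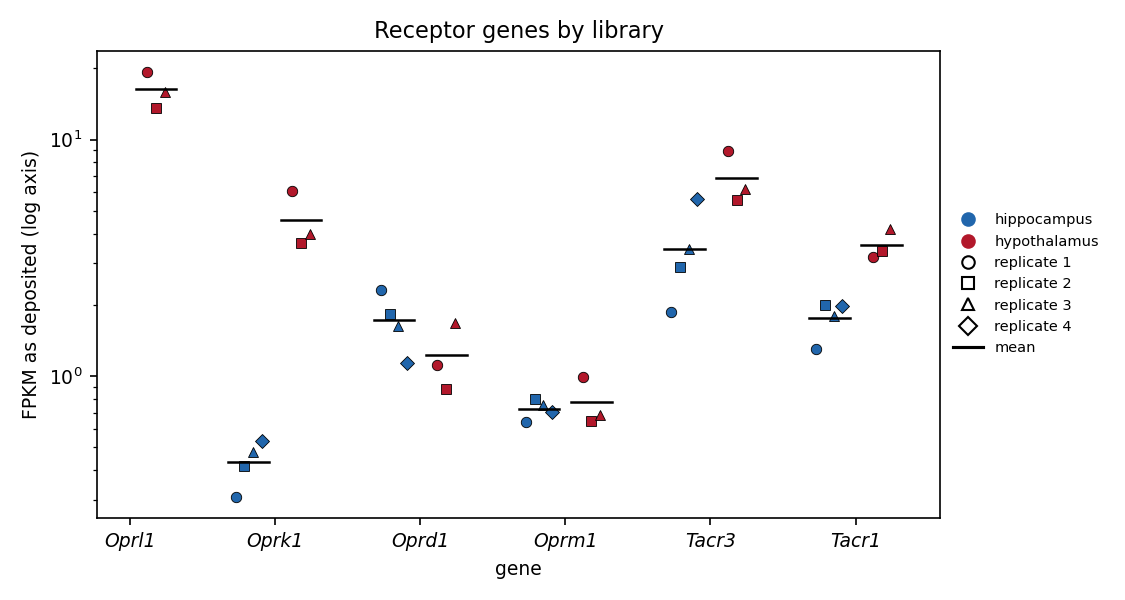
FPKM as deposited (log axis) of the 6 receptor genes in each library, by tissue (colour) and replicate (symbol), with the mean of each tissue as a line. Oprl1 is shown for hypothalamus only. Oprk1 reads 3.64 to 6.04 FPKM in hypothalamus and 0.310 to 0.532 in hippocampus, while Oprm1 and Oprd1 overlap between the tissues.

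The order of the genes differed between the tissues. In hypothalamus the order by mean FPKM was Penk, Pnoc, Pdyn, Tac1, Oprl1, Tacr3, Oprk1, Tacr1, Oprd1 and Oprm1. Library ranges overlapped between the neighbours Pnoc and Pdyn, Pdyn and Tac1, Tacr3 and Oprk1, Oprk1 and Tacr1, and Oprd1 and Oprm1, so those pairs were not separated beyond their spread. In hippocampus the order was Penk, Pdyn, Pnoc, Tac1, Tacr3, Tacr1, Oprd1, Oprm1 and Oprk1. There the ranges were apart between Pdyn and Pnoc, Oprd1 and Oprm1, and Oprm1 and Oprk1, and they overlapped between all other neighbours. Oprk1 was thus the lowest of 9 genes in hippocampus and among the middle ones in hypothalamus.

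Ratios between genes of the same library do not depend on how a library was scaled. Plain ratios of FPKM, added after the data were seen, are given because several receptors lie near 1 FPKM. Within hippocampus libraries Pdyn was 0.686, 0.827, 0.705 and 0.407 times Penk, and within hypothalamus libraries 0.194, 0.215 and 0.231 times. The tissues did not overlap in this ratio. With a pseudocount of 1 its log2 mean was −0.62 ± 0.41 (SD, n = 4) in hippocampus and −2.20 ± 0.12 (SD, n = 3) in hypothalamus, and with the 2 hippocampal loci of Pdyn summed the hippocampal mean became −0.13. Oprm1 exceeded Oprk1 in every hippocampus library, 1.33 to 2.06 times, and was 0.164 to 0.178 times Oprk1 in the hypothalamus libraries. On the log2 scale with a pseudocount of 1 these were 0.27 ± 0.09 (SD, n = 4) and −1.62 ± 0.17 (SD, n = 3).

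Peptide to receptor ratios moved in different directions for different pairs. Penk was 30.9 to 40.2 times Oprm1 in hippocampus and 191 to 316 times in hypothalamus. Against Oprd1, Penk was 11.1 to 22.2 times as high in hippocampus and 129 to 229 times in hypothalamus. Tac1 was 2.28 to 3.59 times Tacr1 in hippocampus and 8.90 to 16.6 times in hypothalamus. These 3 ratios were higher in every hypothalamus library, also with a pseudocount of 1. The ratio of Pdyn to Oprk1 went the other way, at 19.3 to 63.3 in hippocampus and 6.08 to 12.6 in hypothalamus. With a pseudocount of 1 that ratio overlapped between tissues, at log2 means of 3.64 and 3.02, and with a pseudocount of 5 its order turned, at 2.02 in hippocampus and 2.34 in hypothalamus. Tacr3 to Tacr1 did not separate the tissues, at 1.43 to 2.84 in hippocampus and 1.47 to 2.82 in hypothalamus. Pnoc was 2.45 to 3.81 times Oprl1 in hypothalamus.

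**Figure D5:**
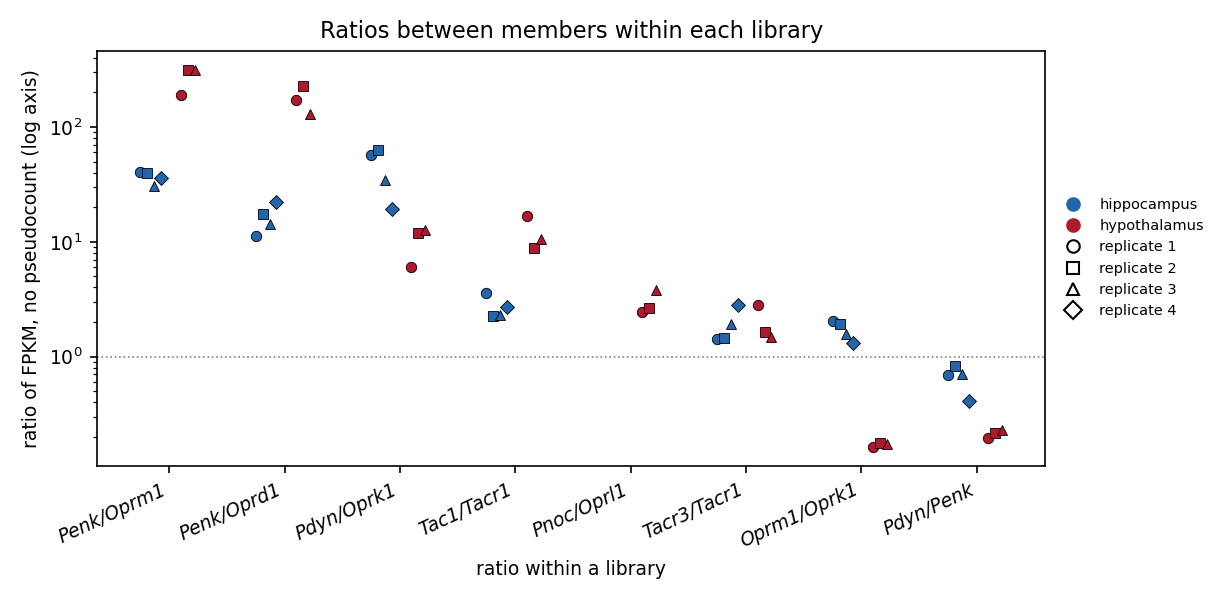
Ratio of FPKM between pairs of genes within each library (log axis, no pseudocount), by tissue (colour) and replicate (symbol). The dotted line marks equal levels. Penk to Oprm1, Penk to Oprd1 and Tac1 to Tacr1 are higher in all hypothalamus libraries, Pdyn to Penk and Oprm1 to Oprk1 are lower, and Tacr3 to Tacr1 overlaps.

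Replicate libraries were compared gene by gene. In hippocampus the most variable were Pdyn, with an SD of 0.53 in log2(FPKM + 1), above that of 92.8% of symbols of at least 1 FPKM, Tacr3 with 0.50 and Pnoc with 0.43, against a median of 0.23. Pdyn and Tacr3 did not vary in parallel: Pdyn was highest in replicate 2 and lowest in replicate 4, where Tacr3 was highest. Replicate 4 was also the lowest for Pnoc and Oprd1. Among the 6 listed markers of dentate granule cells, 5 were found in both tables, and their summed FPKM in replicates 1 to 4 of hippocampus was 89.6, 85.4, 71.7 and 73.2, against 68.2 to 118.7 in hypothalamus, where Calb1 alone read 98.8, 47.8 and 47.5 FPKM. Of the 4 compared, Prox1 and Pdzd2 were called higher in hippocampus and 0 in hypothalamus, beside 14.5% and 13.4% of all symbols. None of the 5 was at 0 in all hippocampus libraries. Prox1, a transcription factor of granule cells, read 9.41, 15.03, 8.80 and 17.0 FPKM, and C1ql2, from the same list, read 45.1, 33.5, 26.9 and 17.0 FPKM. In replicate 4, where Pdyn was lowest, Prox1 was thus at its highest and C1ql2 at its lowest. The GABA interneuron list, 10 genes of which Npy was listed at 0 in all libraries, summed to 913, 695, 632 and 534 FPKM in the same order, against 951 to 1166 FPKM in hypothalamus. In hippocampus Cck read 457, 202, 204 and 186 FPKM and made up much of that sum. Gad1 was lowest in replicate 1, at 58.9 FPKM, while Slc32a1 was highest there, at 46.6 FPKM. Of the 9 genes compared, Gad2 and Calb2 were called higher in hypothalamus and Cck in hippocampus, beside 13.4% and 14.5% of all symbols. The part of these cell types in the spread of Pdyn and Pnoc was not tested.

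In hypothalamus, replicate 1 was the highest library for 5 of the 10 genes, Tac1, Oprm1, Oprk1, Oprl1 and Tacr3, and the lowest for Pdyn, Penk and Tacr1. Replicate 2 was the lowest for 7 of the 10. Replicate 1 was also the library that stood apart in this tissue, at 182 of 8129 loci, and the part of that in these orders was not tested. Tac1 had the largest spread in hypothalamus, an SD of 0.41 in log2(FPKM + 1), above that of 79.3% of symbols. Markers of other parts of the region moved between these libraries as well. Pmch, the melanin-concentrating hormone gene of the lateral hypothalamus, read 1330, 375 and 773 FPKM. Of the same list of hypothalamic neuron markers, Hcrt, Oxt, Cartpt, Crh and Gal were also lowest in replicate 2. Avp, Pomc, Trh, Ghrh, Agrp and Nkx2-1 were instead lowest in replicate 1, with Avp at 2818, 3712 and 3229 FPKM, and Sim1 was lowest in replicate 3. The 5 thalamus markers, none at 0 in all libraries, summed to 62.3, 35.9 and 25.8 FPKM, against 21.7 to 36.0 FPKM in hippocampus, with Tcf7l2 at 17.0, 9.03 and 9.43 FPKM. Tcf7l2, Lef1 and Gbx2, 3 of the 5, were called higher in hypothalamus, beside 13.4% of all symbols, Lef1 not under median-ratio scaling. Gbx2 averaged 0.0625 FPKM in hippocampus and passed the filter on low values through hypothalamus alone, so this count is a description only. Prkcd, the most abundant in the first library, overlapped between tissues. Rora, the remaining marker, had rescaled values higher in every hippocampus library without reaching 2-fold, while its deposited values overlapped, at 2.79 ± 0.549 FPKM (SD, n = 4) against 1.91 ± 0.651 FPKM (SD, n = 3). Their part in the spread of the receptors, and in the calls of the peptide genes and Oprk1, was not tested. Tac1 is also a gene of the medial habenula, whose 3 markers found in both tables each averaged under 1 FPKM in both tissues. Together they summed to at most 2.36 FPKM in any library, reached in hypothalamus replicate 1, where Tac1 was highest as well. The part of habenular tissue in the level of Tac1 was not tested.

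Penk, Pdyn and Tac1 are also abundant in projection neurons of the striatum, which lies near both dissections. All 9 striatal markers were found, none at 0 in all libraries of a tissue. Their summed FPKM was 102, 167 and 174 in hypothalamus replicates 1 to 3 and 81.8 to 94.8 over the hippocampus libraries. Of the 9, Drd2, Rgs9 and Gpr6 were called higher in hypothalamus and Pde10a in hippocampus, beside 13.4% and 14.5% of all symbols. Drd2 and Gpr6 averaged 0.873 and 0.704 FPKM in hippocampus and passed the filter on low values through hypothalamus alone. The count for hypothalamus is therefore a description only. Drd1, the dopamine receptor gene of the striatal neurons that make dynorphin and substance P, lay lower in every hypothalamus library without reaching 2-fold, at 2.46 ± 0.04 FPKM (SD, n = 3) against 4.34 ± 0.65 FPKM (SD, n = 4) in hippocampus. Penk, Pdyn and the striatal sum had the same order over the hypothalamus libraries, while Tac1 was highest where that sum was lowest. Ppp1r1b, at 42.0, 102.4 and 94.7 FPKM, made up much of that sum. The part of striatal tissue in the levels of Penk and Pdyn was not tested.

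Other genes of the same signalling families were examined from lists drawn up by function. Of 7 further opioid and tachykinin genes, 5 were compared, 2 of which were called higher in hypothalamus and 1 in hippocampus, under each of the 4 scalings, where 13.4% and 14.5% of all symbols were called by the main scaling. Pomc, the precursor gene of beta-endorphin, read 94.0, 141 and 135 FPKM in hypothalamus and 5.07 FPKM or less in hippocampus. The neurokinin B precursor gene, now named Tac3 and listed as Tac2, read 169, 91.8 and 188 FPKM in hypothalamus and 24.3 to 29.5 FPKM in hippocampus. It was thus more abundant than Tac1 in every library of both tissues. Ogfr, a growth factor receptor gene that binds an enkephalin and is unrelated to the classical opioid receptors, was the one higher in hippocampus, at 81.2 ± 23.5 FPKM (SD, n = 4) against 22.2 ± 3.42 FPKM (SD, n = 3). Of the 6 genes of the arcuate list, which also holds Pdyn, Tacr3 and the neurokinin B gene, 5 were called higher in hypothalamus, Tacr3 being the exception. Kiss1, Esr1 and Nhlh2 passed the filter on low values through hypothalamus alone, so this count is a description only. Among them Kiss1, the kisspeptin gene, read 3.12, 7.86 and 10.3 FPKM there and was listed at 0 in all hippocampus libraries.

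Genes that act in cutting and finishing the precursors were listed as a group of their own. Of the 6 listed, 5 were compared, 0 of which were called higher in hypothalamus and 3 in hippocampus: the convertase gene Pcsk2, the convertase inhibitor gene Pcsk1n and the carboxypeptidase gene Cpe. Of all symbols, 13.4% and 14.5% were so called. With FPKM as deposited, the counts were 1, Pam, and 2, Pcsk1n and Cpe, beside 16.9% and 8.64% of all symbols. Pcsk2 averaged 82.2 ± 12.01 FPKM (SD, n = 4) over the hippocampus libraries against 44.0 ± 3.33 FPKM (SD, n = 3) over those of hypothalamus. Pcsk1n varied widely between hippocampus libraries, at 156, 117, 26.3 and 23.9 FPKM, against 8.66, 7.70 and 18.6 FPKM in hypothalamus. Pam, which amidates substance P among other peptides, had values above those of hippocampus in every hypothalamus library, at 159 ± 8.39 against 73.8 ± 10.2 FPKM, short of the 2-fold condition after rescaling. Of 7 peptide-degrading enzymes compared, 1, Ece1, was called higher in hypothalamus and 0 in hippocampus, a share in hypothalamus near the 13.4% of all symbols. Mme, the gene of the enkephalin-degrading enzyme neprilysin, overlapped between tissues, with 1.19 ± 0.39 FPKM (SD, n = 3) for hypothalamus against 0.78 ± 0.27 FPKM (SD, n = 4) for hippocampus.

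Of 19 listed partners of receptor signalling, 17 were compared, 2 of which were called higher in hypothalamus and 5 in hippocampus, beside 13.4% and 14.5% of all symbols. The inward rectifier channel genes Kcnj3, Kcnj6 and Kcnj9, whose channels opioid receptors open through G proteins, were all called higher in hippocampus, Kcnj9 only under the sum and median-ratio scalings. Kcnj3 averaged 30.2 ± 3.84 FPKM (SD, n = 4) over the hippocampus libraries against 9.62 ± 1.11 FPKM (SD, n = 3) over those of hypothalamus. Gnai2, an inhibitory G protein subunit gene, was higher in hypothalamus, at 408 ± 141 against 124 ± 24.5 FPKM. Gnai1, another such subunit gene, was called higher in hippocampus under the sum and median-ratio scalings alone, at 89.0 ± 14.9 FPKM (SD, n = 4) against 53.7 ± 20.3 FPKM (SD, n = 3). With FPKM as deposited, 3 of these genes were called higher in each tissue, beside 16.9% of all symbols in hypothalamus and 8.64% in hippocampus. The median difference of the 17 genes was −0.83 on the log2 scale, against 1.70 for the opioid and tachykinin genes.

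Genes with the most similar profile were found for the 5 genes of at least 5 FPKM in a tissue and present in both tables, as the smallest Euclidean distance over the 7 libraries of centred log2(rescaled value + 1) among 8469 symbols. For Penk they were Minos1, Ccdc34 and Ubxn6, at distances of 0.299 to 0.426 where the median symbol was at 3.70. Minos1 averaged 129 ± 5.85 FPKM (SD, n = 3) over the hypothalamus libraries against 15.9 ± 1.87 FPKM (SD, n = 4) over those of hippocampus. For Pnoc, Rps2 was at 0.541 and Ngb (neuroglobin) at 0.605, and for Tac1 they were Rpl15, Cenpn and Trappc2l at 0.519 to 0.566. Ribosomal protein genes such as Rps2 and Rpl15 have near-identical copies, so their values are uncertain. For Pdyn they were Sema4b, Smyd2 and Cnpy3 at 0.494 to 0.565, and for Tacr3 they were Negr1, Cd200 and Erp44 at 0.439 to 0.452. These are likenesses over 7 libraries that share a tissue difference, and none of the other listed opioid or tachykinin genes was among them.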

How the data were processed

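Poly-A RNA was sequenced on an Illumina instrument, per the labels' protocols. The authors deposited FPKM values, 1 table per tissue, with a status word per value. TopHat, Bowtie, TopHat2, Bowtie2, Cufflinks and Cuffdiff and the build rn5 are named in the submitters' processing notes, with no version or role. The annotation, the strand setting and the scaling of libraries are not given in the sources used here. A locus whose status word was not OK for some library was dropped (86 loci of hippocampus, 24 of hypothalamus), and for a symbol with several loci the one with the highest mean was used. Calculations used Python 3.11.15, numpy 2.4.6 and pandas 2.3.3, with a pseudocount of 1, and the calling of symbols was tested on simulated data. List genes were matched by symbol or older symbol.

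FPKM holds no counts, so absolute depth is unknown and no counting interval was computed. Low values were spaced at a common ratio between libraries only in pairs without replicate 1, with 19.5% to 25.0% of loci under 0.1 FPKM at that ratio. The ratio of that step, replicate 2 over replicate 3, was 1.51 in hippocampus and 0.889 in hypothalamus. Pairs with replicate 1 reached at most 3.66%.

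The genes and lists were chosen with earlier results of these data known. Named genes are the 10 members, genes of the fixed lists and the 3 most similar profiles per member of at least 5 FPKM, of which 1 is not reported here. A test between tissues was not made because each tissue has its own table. Alternatives were other scalings, pseudocounts of 0.1 and 5, other filters, summed loci, all loci kept and each library left out.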

Additional observations from a re-analysis of the deposited data

How the results depend on the processing

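The count of 5 genes higher in hypothalamus stayed between 4 and 6, and that of 0 higher in hippocampus stayed at 0, over all 18 alternatives. Penk, Pnoc and Tac1 were called under each of them, and Oprk1 under each but the filter of 5 FPKM, which leaves it out. Leaving out 1 library gave 4 or 5. Pdyn lost its call with a pseudocount of 5, with loci summed, and without hippocampus replicate 4 or hypothalamus replicate 3. Over the alternatives the difference ran from 2.57 to 2.89 for Penk, 2.66 to 3.16 for Pnoc, 2.47 to 2.98 for Tac1, 1.31 to 2.98 for Oprk1, 0.58 to 1.31 for Pdyn, 0.41 to 0.73 for Tacr1, 0.28 to 0.96 for Tacr3 and −0.79 to −0.29 for Oprd1. With FPKM as deposited, symbols called higher in hippocampus went from 1560 to 928 and those higher in hypothalamus from 1439 to 1819, which goes with a shift of the median of all symbols from −0.05 to 0.21. The hippocampal share of calls was then 33.8%. With no fold required the counts were 2621 in hypothalamus and 3023 in hippocampus. No paired analysis was possible because the tissue comparison comes from no test and the labels do not say whether the tissues came from the same animals. Depth is unknown, so no counting error can be given for Oprm1 or for hippocampal Oprk1, both under 1 FPKM.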
